A study of Mus musculus with 7 samples.

Results

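The genes described here are the constitutive proteasome genes of mouse inguinal white adipose tissue, the subcutaneous fat pad of the groin. They were taken as the protein-coding genes whose symbol starts with Psma, Psmb, Psmc, Psmd, Psme or Psmf followed by a digit. Psmb6 was left out, as were the immune subunits Psmb8, Psmb9 and Psmb10 and all pseudogenes. This gave 42 of the 29517 genes in the count table, and all 42 passed the filter on low counts. They comprise 14 core genes (8 alpha and 6 beta), 9 base genes (6 ATPases and 3 others), 8 lid genes, 6 regulators, 3 assembly chaperones, and 2 genes that are only named after a subunit, Psmc3ip and Psme3ip1. Psmb11, a thymus subunit, was not analysed here.

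The proteasome is the cell's main machine for degrading proteins that carry ubiquitin chains. Its barrel-shaped core stacks rings of alpha subunits, which gate the entrance, around rings of beta subunits, 3 kinds of which cut peptide bonds. A regulatory particle caps the barrel. The base of that cap holds a ring of ATPases that unfold the substrate and feed it into the core, and the lid removes the ubiquitin. In mouse brown fat, proteasome activity is known to be raised through the transcription factor NFE2L1 during adaptation to cold.

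The study compared untreated C57BL/6 mice of 2 genotypes on standard chow, wild type (WT, 4 libraries) and TM4SF5-/- (KO, 3 libraries). TM4SF5 is a membrane protein of the L6 family, and the series asked how its loss changes the messenger RNA of this tissue. The labels give no age, sex, litter, batch or deleted part of the gene, and they do not say whether other alleles were present. RNA was read as counts per gene from poly(A) libraries, and levels are given here as CPM, counts divided by the library total and put on a common scale, after TMM scaling.

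Libraries are named by their labels, which do not say that each came from its own animal, so p-values measure only the spread between these libraries. Totals ran from 55717495 to 60241436 counts in WT and from 49775077 to 50704542 in KO. For Tm4sf5 itself the WT libraries in order held 33, 45, 47 and 20 counts, and the KO libraries held 7, 6 and 17. Once scaled, KO 3 (0.353 CPM) lay above WT 4 (0.322 CPM), so the targeted gene does not separate the labelled genotypes, and counts below are also given without KO 3 and without WT 4. Defining adipocyte markers were present in every library, as the summed level of 6 of them ran from 8890 to 13033 CPM in WT and from 13584 to 24917 CPM in KO. Mitochondrially encoded genes took 8.07% to 12.1% of counts in WT and 16.1% to 18.9% in KO, and TMM factors were 1.06 to 1.16 in WT and 0.798 to 0.954 in KO.

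With TMM scaling most proteasome genes had somewhat higher levels in KO fat, but no single gene passed the edgeR test across all genes, and with total counts alone the direction turned. Of the 42 genes, 39 had a log2 fold change of KO over WT above 0, against 46.9% of the 19185 genes tested, and with total counts alone 9 of the 42 did. Their median was 0.23, against -0.04 over all genes tested, and with total counts alone it was -0.10, against -0.35. Psmb5 (1.62-fold), Psma1, Psmb7, Psmd4 and Psma6 (1.45-fold to 1.5-fold) had the highest ratios of mean CPM.

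At an adjusted p under 0.05 (edgeR quasi-likelihood test, Benjamini-Hochberg adjustment over all genes), 0 members and 0 genes in all (0%) were called, and the smallest adjusted p of a member was 0.108, for Psmd4. At an unadjusted p under 0.05, 8 members (19.0%) were higher in KO, where 12.3% of all genes tested were, and 0 members were lower, where 9.51% of all genes were. In either direction the same 8 stand against 21.8% of all genes, so calls as such were not more frequent among members. All 3 KO libraries lay above all 4 WT libraries for 9 members (21.4%), against 11.4% of all genes tested, and 0 members showed the reverse, against 8.92%, with 20.3% of all genes not overlapping in either direction. DESeq2 called 4 of the 42 members at an adjusted p under 0.05 (Psma1, Psma6, Psmb7 and Psmd4). In all it called 2120 genes, 11.1% of those tested, so such calls were not more frequent among members. On its own scale 6 of the 42 members had an unadjusted p under 0.05 and were higher, against 12.8% of all genes.

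The count of 8 depended on single libraries and on the scaling. Omitting WT 2 raised it to 15 (10.4% of all genes were called in the same fit), and omitting KO 1 reduced it to 3 (6.94%). It stood at 5 when WT 1 (12.7%), WT 3 (9.38%) or WT 4 (11.1%) was omitted. It was 9 when KO 2 (11.9%) and 7 when KO 3 (12.2%) was omitted. In that last fit 1 gene, Psme2b, was called lower, where 11.2% of all genes were. With no filter on low counts 6 members were higher (8.29% of all genes), and with at least 1 CPM in 3 libraries 8 were (14.4%). With relative log expression size factors 6 members were higher (11.9% of all genes). TMM without mitochondrially encoded genes also gave 6 (12.7%), and limma-voom gave 8 (12.3%). A fit with a replicate block gave 3 (8.91%). With total counts alone 0 members had an unadjusted p under 0.05 on the higher side, against 3.62% of all genes. Relative to the median of all genes, the members' median was 0.27 higher with TMM and 0.25 higher with total counts alone. Over all genes, calls at an unadjusted p under 0.05 split into 2363 higher and 1824 lower with TMM, and into 694 higher and 4871 lower with total counts alone.

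**Figure D1:**
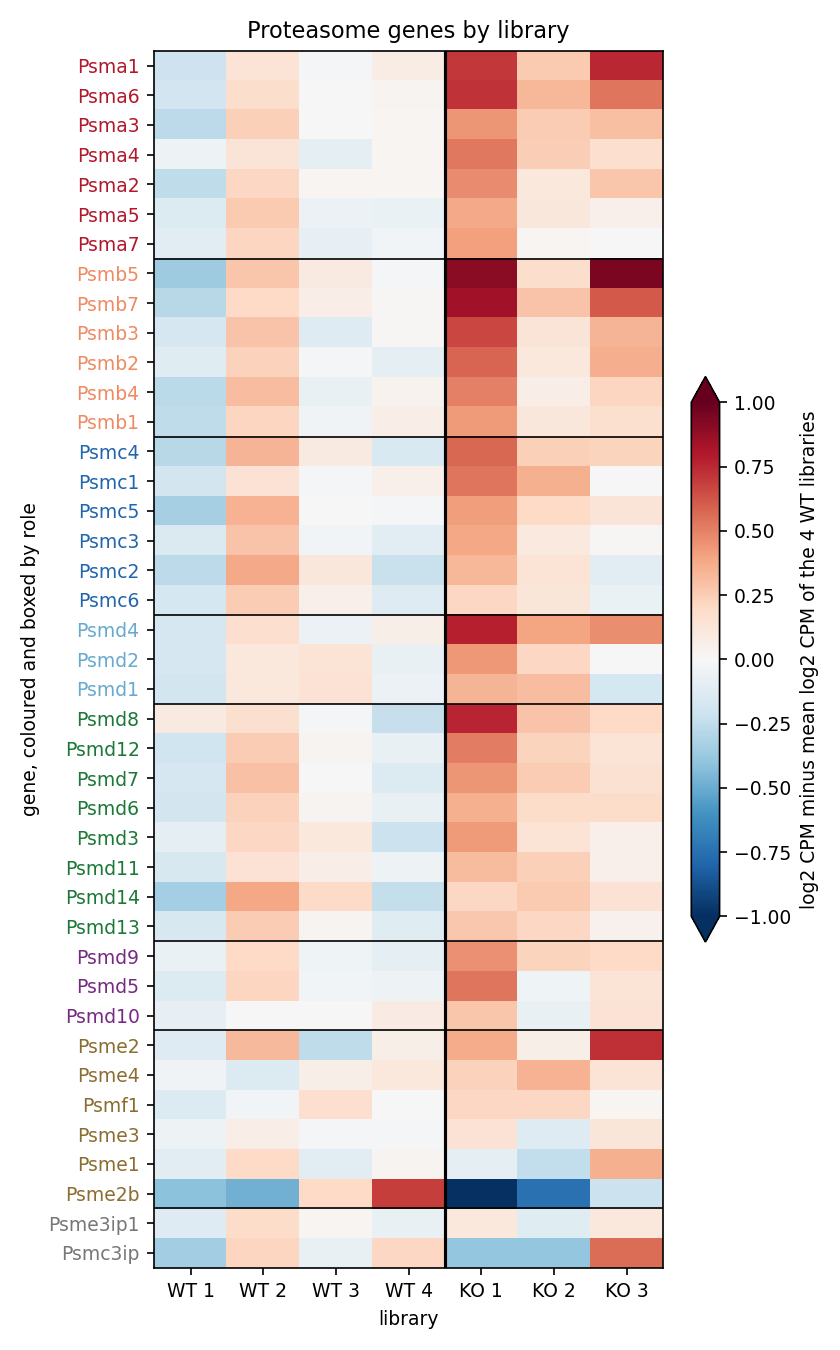
Level of 41 of the 42 proteasome genes in each library, as log2 CPM minus the mean log2 CPM of the 4 WT libraries (Psma8, under 1 CPM, is left out); rows are genes boxed by role, columns are libraries, and red is above and blue below the WT mean, with colour limits at -1 and 1. KO 1 is the reddest column, WT 1 is mostly blue, and Psmb5, Psmb7, Psma1 and Psma6 are redder in KO 1 and KO 3 than elsewhere.

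These genes ranked the libraries in much the same way. Leaving out Psma8, 30 core, base and lid genes were well measured, with 2589 to 12789 counts per library, and all 30 had a log2 fold change above 0 (0.08 to 0.69). WT 1 was the lowest of the 7 libraries for 27 of the 30 genes, and KO 1 was the highest for 25. Within WT, WT 2 was the highest library for 28 of the 30. KO 1 lay above every WT library for 27 genes, while KO 2 and KO 3 each did so for 11. The overlap between the groups thus came mainly from WT 2 on one side and from KO 2 and KO 3 on the other. Before any scaling by TMM, the 42 genes together took 0.290% to 0.413% of counts in WT and 0.313% to 0.347% in KO, ranges that overlap. As a share of counts outside the mitochondrial genome they took 0.322% to 0.449% in WT and 0.374% to 0.418% in KO.

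The alpha subunits form the outer rings of the core and its gate. Psma1 had 81.0, 103, 92.7 and 98.3 CPM in WT 1 to WT 4 and 152, 112 and 157 CPM in KO 1 to KO 3. Psma6 had 86.6, 112, 98.8 and 100.9 CPM in WT and 163, 125 and 144 CPM in KO. Both genes were higher in every KO library than in any WT library, by the least in KO 2. The log2 fold change was 0.58 (SE 0.16) for Psma1 and 0.53 (SE 0.15) for Psma6, each with an edgeR adjusted p of 0.112. Psma4 had 91.0, 103, 88.1 and 95.3 CPM in WT and 136, 112 and 106 CPM in KO, again without overlap (log2 fold change 0.32, SE 0.14, edgeR adjusted p = 0.224).

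Psma3 also showed no overlap, with 88.8 to 125 CPM in WT and 127 to 144 CPM in KO, and its log2 fold change was 0.32 (SE 0.15). The other alpha subunits of this tissue, Psma2, Psma5 and Psma7, overlapped between the groups, with log2 fold changes of 0.28, 0.18 and 0.15. Psma8, a subunit of the testis, was near absent. It had 0.228, 0.287, 0.155 and 0.371 CPM in WT and 0.151, 0.264 and 0.145 CPM in KO, with a log2 fold change of -0.47 (SE 0.48). Its groups overlapped at a handful of counts, so nothing can be read from its sign.

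Among the beta subunits, the catalytic pair left by the rule had the largest log2 fold changes of the class. Psmb5 encodes the chymotrypsin-like subunit, the main target of proteasome inhibitor drugs. Its level was 50.1, 77.7, 68.0 and 63.5 CPM in WT 1 to WT 4 and 119, 72.5 and 123 CPM in KO 1 to KO 3. KO 1 and KO 3 were far above all WT libraries, whereas KO 2 lay below WT 2. Its log2 fold change of 0.69 (SE 0.22, edgeR adjusted p = 0.14) ranged from 0.59 to 0.92 when each library was left out in turn. Psmb7, the trypsin-like subunit, had 75.9, 106, 96.6 and 93.0 CPM in WT and 165, 112 and 141 CPM in KO. Here the groups did not overlap, although KO 2 exceeded WT 2 by little (log2 fold change 0.59, SE 0.17, edgeR adjusted p = 0.125).

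The strand setting of the counting is not given in the sources used here, and Psma4 is 1 of 9 members whose span overlaps another protein-coding gene, with Psmc3ip, Psmd1, Psmd10, Psme1, Psme2b, Psme3ip1, Psme4 and Psmf1, so their counts may include reads of a neighbour.

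The remaining beta subunits have structural roles. Psmb2 had 56.4, 71.9, 60.7 and 57.4 CPM in WT and 91.8, 66.0 and 78.9 CPM in KO. WT 2 lay above KO 2, with a log2 fold change of 0.36 (SE 0.15, edgeR adjusted p = 0.229). Psmb3 (0.39), Psmb4 (0.26) and Psmb1 (0.23) had unadjusted p-values of 0.0584, 0.179 and 0.172, and their groups overlapped as well.

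**Figure D2:**
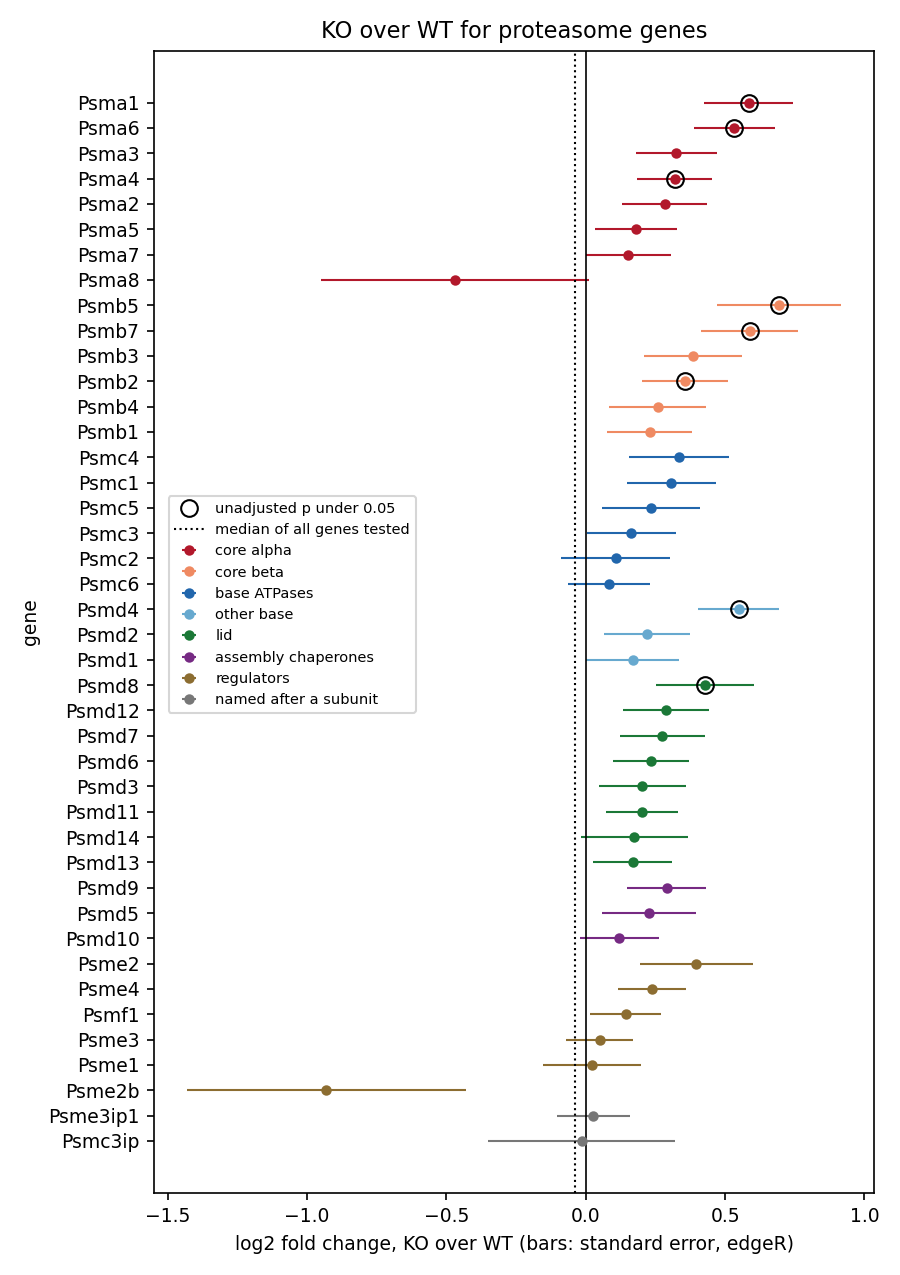
Log2 fold change of KO over WT (horizontal axis) for all 42 proteasome genes (vertical axis), with bars for the standard error and colours for the role; black rings mark an unadjusted p under 0.05 (edgeR), and the dotted line is the median of all genes tested, -0.04. The rings fall on 6 core genes, 1 base gene and 1 lid gene, and 3 genes lie below 0.

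The base holds 6 ATPases that form the unfolding ring, and none of them was singled out by the test. Psmc1 had 81.6, 103, 92.0 and 96.4 CPM in WT 1 to WT 4 and 135, 119 and 92.8 CPM in KO 1 to KO 3. Psmc4 had 57.7, 88.4, 74.5 and 63.0 CPM in WT and 104, 82.5 and 81.7 CPM in KO. Psmc5 had 60.5, 97.0, 76.3 and 75.0 CPM in WT and 102, 87.4 and 83.1 CPM in KO. For all 3 the groups overlapped, since at least 1 KO library lay below WT 2. Their log2 fold changes were 0.31, 0.33 and 0.23, and those of Psmc3, Psmc2 and Psmc6 were 0.16, 0.11 and 0.08, the last being the smallest of the core, base and lid genes other than Psma8.

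Psmd4, a ubiquitin receptor of the base, stood apart from its neighbours. Its level was 86.0, 108, 92.4 and 100.4 CPM in WT and 165, 127 and 133 CPM in KO. Every KO library was above every WT library, with a fitted log2 fold change between the groups of 0.55 (SE 0.15, edgeR adjusted p = 0.108). The large scaffold subunits were more even. Psmd2 had 160, 193, 197 and 170 CPM in WT and 242, 208 and 180 CPM in KO, and Psmd1 had 112, 136, 140 and 122 CPM in WT and 161, 157 and 113 CPM in KO. In both, KO 3 fell inside the WT range, and the log2 fold changes were 0.22 and 0.17.

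The lid assembles around the deubiquitinase encoded by Psmd14. Psmd8, a scaffold subunit, had 110, 116, 102 and 88.1 CPM in WT 1 to WT 4 and 175, 126 and 119 CPM in KO 1 to KO 3. It was the only lid gene of the 8 whose groups did not overlap (log2 fold change 0.43, SE 0.18, edgeR adjusted p = 0.21), and its unadjusted p stayed under 0.05 in 9 of 15 alternative analyses. Psmd12 had 54.4, 74.4, 63.7 and 59.2 CPM in WT and 88.9, 73.1 and 68.6 CPM in KO. Psmd7, the partner of the deubiquitinase, had 57.9, 79.5, 65.2 and 59.2 CPM in WT and 88.2, 77.4 and 72.0 CPM in KO. In both genes WT 2 lay above KO 2 and KO 3, and the log2 fold changes were 0.29 and 0.28. Psmd6 (0.23), Psmd3 (0.20), Psmd11 (0.20), Psmd14 (0.17) and Psmd13 (0.17) followed, with overlap in each.

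Set side by side, the core had a median log2 fold change of 0.32 over 14 genes, the base 0.22 over 9 and the lid 0.22 over 8, against -0.04 over all genes tested. Without Psma8, an alternative chosen after seeing the data, the core median was also 0.32. Of the 8 members with an unadjusted p under 0.05, 6 were core genes, 1 was a base gene and 1 a lid gene. Apart from Psmd4 and Psmd8, the 15 base and lid genes lay between 0.08 and 0.33.

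The gap between core and cap did not separate the labelled genotypes. The mean log2 CPM of the 13 core genes without Psma8, minus that of the lid, was 0.11, 0.15, 0.09 and 0.31 in WT 1 to WT 4 and 0.34, 0.11 and 0.41 in KO 1 to KO 3. KO 1 and KO 3 lay above all WT libraries, but KO 2 lay inside their range. Core minus base gave -0.20, -0.22, -0.28 and -0.13 in WT and -0.07, -0.27 and 0.10 in KO, the same pattern. The mean shift from WT to KO was 0.12 for core minus lid and 0.13 for core minus base. Each shift exceeded the SD over WT libraries (0.10 and 0.063) but not that over KO libraries (0.16 and 0.18). Base minus lid came to 0.37 ± 0.0518 over WT libraries (SD, n = 4) against 0.36 ± 0.0509 over KO libraries (SD, n = 3), so these cap classes kept their spacing. No test was made of these class values, because the genes were chosen with earlier results of these data known.

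**Figure D3:**
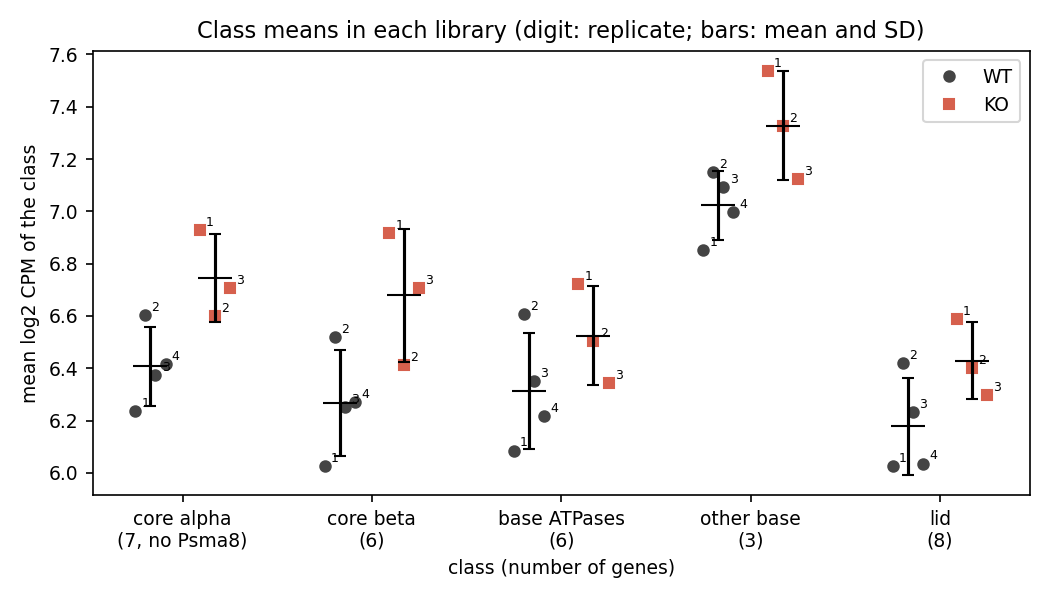
Mean log2 CPM of the genes of each class (vertical axis) in each library, for 5 classes of core, base and lid genes (horizontal axis, number of genes in brackets); grey circles are WT and red squares KO, small digits are replicate numbers, and bars show mean and SD over 4 WT or 3 KO libraries. In every class KO 1 is the highest library and WT 1 the lowest, and in every class at least 1 KO library lies below WT 2.

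Per length, core messages were more abundant than those of the lid in both genotypes. With CPM divided by the length of the principal GENCODE transcript in kilobases, the median level was 72.1 for 13 core genes, 55.7 for 9 base genes and 40.7 for 8 lid genes in WT, and 98.4, 62.4 and 48.6 in KO. Ranges overlapped, from 27.8 (Psma2) to 95.5 (Psma6) in the WT core and from 26.6 (Psmd11) to 67.5 (Psmd8) in the WT lid. The transcripts used for Psma2 and Psma3 (2911 and 2846 bases) are far longer than their coding parts (702 and 765 bases). With coding length alone the WT medians were 112, 64.5 and 60.3. The order of core before base before lid held with either length.

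Regulators that dock on the core outside the cap did not move as one. Psme1 and Psme2 encode an interferon-inducible activator. Psme2 had 94.9, 130, 87.1 and 108 CPM in WT 1 to WT 4 and 135, 108 and 172 CPM in KO 1 to KO 3, with overlap (log2 fold change 0.40, SE 0.20). Psme1, its partner, had 106 to 132 CPM in WT and 96.7 to 147 CPM in KO (log2 fold change 0.02). Psme4, the large single-chain activator, had 94.6, 88.1, 100.8 and 104 CPM in WT and 114, 123 and 106 CPM in KO. It did not overlap, with a log2 fold change of 0.24 (SE 0.12, edgeR adjusted p = 0.296), and unlike the core genes it was highest in KO 2.

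Psme2b is a close copy of Psme2. It had 4.49, 4.29, 6.87 and 9.63 CPM in WT and 1.21, 3.57 and 5.15 CPM in KO, the lowest log2 fold change of the 42 genes at -0.93 (SE 0.50, edgeR adjusted p = 0.314). The groups overlapped, and reads may be shared with Psme2. Psme3, a nuclear activator, and Psmf1, an inhibitor of the core in vitro, had 0.05 and 0.14.

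The assembly chaperones help to build the base and are absent from the finished particle. Psmd9 had 15.04, 18.04, 15.3 and 14.8 CPM in WT 1 to WT 4 and 21.6, 18.4 and 18.1 CPM in KO 1 to KO 3. KO 3 exceeded WT 2 by a hair, so its lack of overlap carries little weight (log2 fold change 0.29, SE 0.14). Psmd5 had 30.98, 39.5, 33.5 and 32.9 CPM in WT and 49.4, 33.1 and 37.6 CPM in KO, and Psmd10 had 12.8, 13.5, 13.6 and 14.3 CPM in WT and 16.4, 12.9 and 14.96 CPM in KO. Both overlapped, at 0.23 and 0.12. Of the genes only named after a subunit, Psmc3ip, a meiotic recombination factor, had 1.45, 2.15, 1.75 and 2.13 CPM in WT and 1.41, 1.41 and 2.72 CPM in KO (log2 fold change -0.01). Psme3ip1 had 0.03, and neither gene shared the lean of the subunits.

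Psmb6, the third constitutive catalytic subunit, lies near Tm4sf5 on chromosome 11. Its groups overlapped, and its mean level was 67.9 ± 8.69 CPM over WT libraries (SD, n = 4), compared with 94.6 ± 19.2 CPM over KO libraries (SD, n = 3). With TMM scaling its log2 fold change was 0.48 (SE 0.17, edgeR unadjusted p = 0.025, adjusted p = 0.173). At an unadjusted p under 0.05, 12.3% of all genes were called higher. The immune subunits that replace the catalytic ones after interferon leaned the other way, with log2 fold changes of -0.40 for Psmb8, -0.32 for Psmb9 and -0.08 for Psmb10, all with overlap.

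In CPM, without correction for length, Psmb5 lay below immune Psmb8 in all WT libraries and above it in KO 1 and KO 3. The transcripts differ in length (899 bases for Psmb5, 1628 for Psmb8). Per kilobase the mean WT level was 72.1 for Psmb5 and 64.7 for Psmb8. Which subunit is the higher thus depends on length, whereas the shift of the ratio between the groups does not. The log2 ratio of Psmb5 to Psmb8 was -0.77, -0.67, -0.31 and -1.01 in WT 1 to WT 4 and 0.81, -0.04 and 0.35 in KO 1 to KO 3. All 3 KO values exceeded all 4 WT values (3 of 3 libraries in that direction), with means of -0.69 ± 0.29 (SD, n = 4) and 0.37 ± 0.42 (SD, n = 3). The exact two-sided permutation p was 0.0286, the smallest that the 35 splits of 7 libraries allow, and 0.0571 after adjustment over the 2 ratios tested, so it did not pass at 0.05. Both ratios were set up with earlier results of these data known, so their p-values are not independent evidence. Psmb7 to Psmb10 gave 0.95, 0.87, 1.46 and 0.98 in WT and 1.92, 1.51 and 1.66 in KO. These groups did not overlap either, but another split gave an equal or larger difference (exact permutation p = 0.0571, adjusted p = 0.0571). A ratio within a library does not depend on scaling, and it shows unequal change, not which gene changed.

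**Figure D4:**
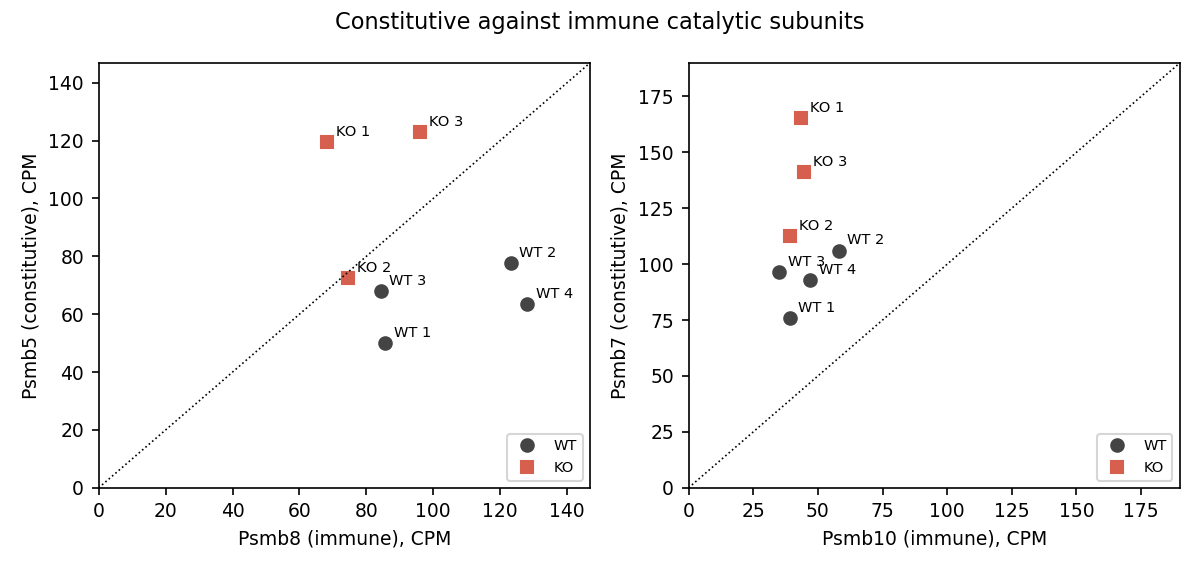
Level of the constitutive subunit (vertical axis, CPM) against its immune counterpart (horizontal axis, CPM) in each of 7 libraries, Psmb5 against Psmb8 on the left and Psmb7 against Psmb10 on the right; grey circles are WT, red squares KO, and the dotted line marks equal levels. All 4 WT libraries lie below the line on the left, KO 1 and KO 3 lie above it, and KO 2 lies close to it. The line compares CPM without correction for transcript length.

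Markers of several other cell types differed between the labelled genotypes. Summed over 6 macrophage markers, the level was 1131 to 1661 CPM in WT and 389 to 627 CPM in KO. All 6 had an unadjusted p under 0.05 on the lower side, where 9.51% of all genes were. Summed over 6 brown and beige adipocyte markers it was 181 to 990 CPM in WT and 636 to 2487 CPM in KO, with KO 1 the highest library, and all 6 log2 fold changes were above 0. T and NK cell markers summed to 187 to 299 CPM in WT and 100.6 to 259 CPM in KO, and B cell markers to 193 to 1066 and 215 to 622 CPM. Skeletal muscle markers varied from 2.21 to 963 CPM in WT and from 10.6 to 124 CPM in KO. Summed over 5 epithelial markers the level was 1.04 to 2.43 CPM in WT. It was 10.1, 1.58 and 5.69 CPM in KO 1 to KO 3, so KO 1 and KO 3 were the highest libraries. The same libraries were the highest for Psmb5, Psmb7, Psma1 and Psma6, and for other members such as Psmb2, Psmb3, Psma3 and Psmd4. A link was not tested. Of the 3 epithelial markers tested, Krt8 and Krt18 had an unadjusted p under 0.05 on the higher side, where 12.3% of all genes were. Krt5 and Krt14 were at 0 counts in 3 and 4 libraries. All 3 progenitor markers had log2 fold changes below 0, and they summed to 125 to 447 CPM in WT and 81.8 to 216 CPM in KO. Among them Dpp4 did not overlap (log2 fold change -1.07, SE 0.17, edgeR adjusted p = 0.0956). The 3 endothelial markers summed to 252 to 882 CPM in WT and 366 to 713 CPM in KO, with overlap. Of the 6 adipocyte markers 5 had log2 fold changes above 0, while Lep had -0.56. An unadjusted p under 0.05 on the higher side was found for 3 of them, where 12.3% of all genes were. None of the adipocyte, macrophage or lymphocyte markers was at 0 in any library. In bulk tissue fewer cells of a type and less RNA per cell cannot be told apart, and the part of cell makeup in the proteasome values was not tested.

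With TMM scaling, other genes of the pathway leaned in the same direction as the subunits. Of 30 such genes, all tested, 6 had an unadjusted p under 0.05 and were higher in KO, where 12.3% of all genes were, 0 were lower, and 0 passed the edgeR adjustment. The median of their log2 fold changes was 0.19, against -0.04 over all genes tested. Other scalings were not examined for these 30 genes, and with total counts alone the members' median turned to -0.10. The 30 genes were chosen with earlier results known. Among partners of the particle, Adrm1, a ubiquitin receptor of the base, had 64.5, 85.2, 72.1 and 66.1 CPM in WT 1 to WT 4 and 124, 92.9 and 84.6 CPM in KO 1 to KO 3. KO 3 lay just below WT 2, and the log2 fold change was 0.48 (SE 0.17). Sem1, the smallest lid subunit (0.38, SE 0.15), and Uchl5, a deubiquitinase (0.30, SE 0.13), were also among the 6, whereas Usp14 (0.23) and Ecpas (0.52) were not.

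Pomp, the chaperone that matures the core, had 47.2, 65.4, 55.0 and 64.8 CPM in WT and 85.5, 73.9 and 72.5 CPM in KO. Its groups did not overlap (log2 fold change 0.41, SE 0.15). Log2 fold changes were 0.04 to 0.37 for the other core chaperones Psmg1 to Psmg4 and for Akirin2, which is no core chaperone. Each of these genes had an edgeR unadjusted p above 0.05. Nfe2l1, which encodes the transcription factor that raises proteasome genes, had 398, 318, 393 and 296 CPM in WT and 554, 444 and 486 CPM in KO. Every KO library lay above every WT library, with a fitted log2 fold change between the groups of 0.49 (SE 0.17, edgeR adjusted p = 0.161). The related factor Nfe2l2 had 0.07, and Ddi2 and Ngly1, whose products help to activate NFE2L1, had -0.25 and 0.19. Of 15 ubiquitin and shuttle genes, Ubqln4 alone had an unadjusted p under 0.05 (0.53, SE 0.16). Among all genes tested 12.3% were called higher, so calls were not more frequent in this list.

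Promoter sequence was looked at because NFE2L1 binds the antioxidant response element. RefSeq windows of GRCm38.p6, each from 250 bases before to 50 bases after an annotated start, were found for 35 of the 42 genes (39 windows). The core of the element, TGACNNNGC on either strand, occurred in 5 of the 39 windows (12.8%), those of Psmb5, Psmc6, Psmd9, Psmd12 and Psme4, and in 12.4% of all 32851 windows, so it was no more frequent here than elsewhere. CCAAT on either strand occurred in 14 of the 39 (35.9%) and in 37.4% of all windows. Of the 10 core genes with a window 6 held CCAAT, against 3 of 8 base genes and 1 of 6 lid genes, and 41.1% of all genes with a window. A match is a description and not a site in use.

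The core alpha gene Psma1 and the base gene Psmd4 had low p-values and no overlap. Psmb5 had the highest log2 fold change of the members, and of the 10 core genes with a window it alone holds the element. The stretches before these 3 genes are shown. Each runs 5′ to 3′ on the gene's strand over the 250 bases before the start, and capitals mark TGACNNNGC or CCAAT on either strand (CCAAT on the other strand reads ATTGG).
Psma1, chr7:114276117-114276366, minus strand: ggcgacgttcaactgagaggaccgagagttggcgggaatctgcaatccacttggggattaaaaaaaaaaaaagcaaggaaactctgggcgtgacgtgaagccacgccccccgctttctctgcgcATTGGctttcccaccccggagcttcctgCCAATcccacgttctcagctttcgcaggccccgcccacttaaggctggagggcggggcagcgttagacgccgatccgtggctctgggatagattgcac
Psmb5, chr14:54617996-54618245, minus strand: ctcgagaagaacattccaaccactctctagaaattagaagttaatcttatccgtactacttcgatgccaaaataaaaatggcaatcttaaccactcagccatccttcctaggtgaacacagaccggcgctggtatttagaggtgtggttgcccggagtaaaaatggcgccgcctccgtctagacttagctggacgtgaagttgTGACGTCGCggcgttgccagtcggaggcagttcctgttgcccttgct
Psmd4, chr3:95042615-95042864, minus strand: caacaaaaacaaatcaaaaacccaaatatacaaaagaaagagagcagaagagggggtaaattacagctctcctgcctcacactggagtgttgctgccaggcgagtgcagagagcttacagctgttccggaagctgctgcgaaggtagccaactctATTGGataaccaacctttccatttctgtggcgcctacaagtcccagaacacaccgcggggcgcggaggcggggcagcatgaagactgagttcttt
In Psmb5 the element begins at position -47 from the start. Psma1 has CCAAT matches at -126 and -98, and Psmd4 has 1 at -95 in the stretch shown.

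Which values held under other analyses can be read from the class medians. Under 15 alternative analyses the core median stayed above that of the base and the lid, at -0.0089 to 0.39, with -0.0089 for total counts alone. The base ran from -0.11 to 0.33 and the lid from -0.11 to 0.32. Relative to the median of all genes in the same analysis, every class median was above 0, from 0.12 for the base without KO 1 to 0.44 for the core without KO 2. Psma1, Psma6 and Psmd4 had an unadjusted p under 0.05 in 14 of the 15 alternatives, all but total counts alone, Psmb7 in 12 and Psmb5 in 11. Without KO 1 the unadjusted p was 0.0506 for Psmb7 and 0.0636 for Psmb5, and without KO 3 it was 0.0312 and 0.0624.

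**Figure D5:**
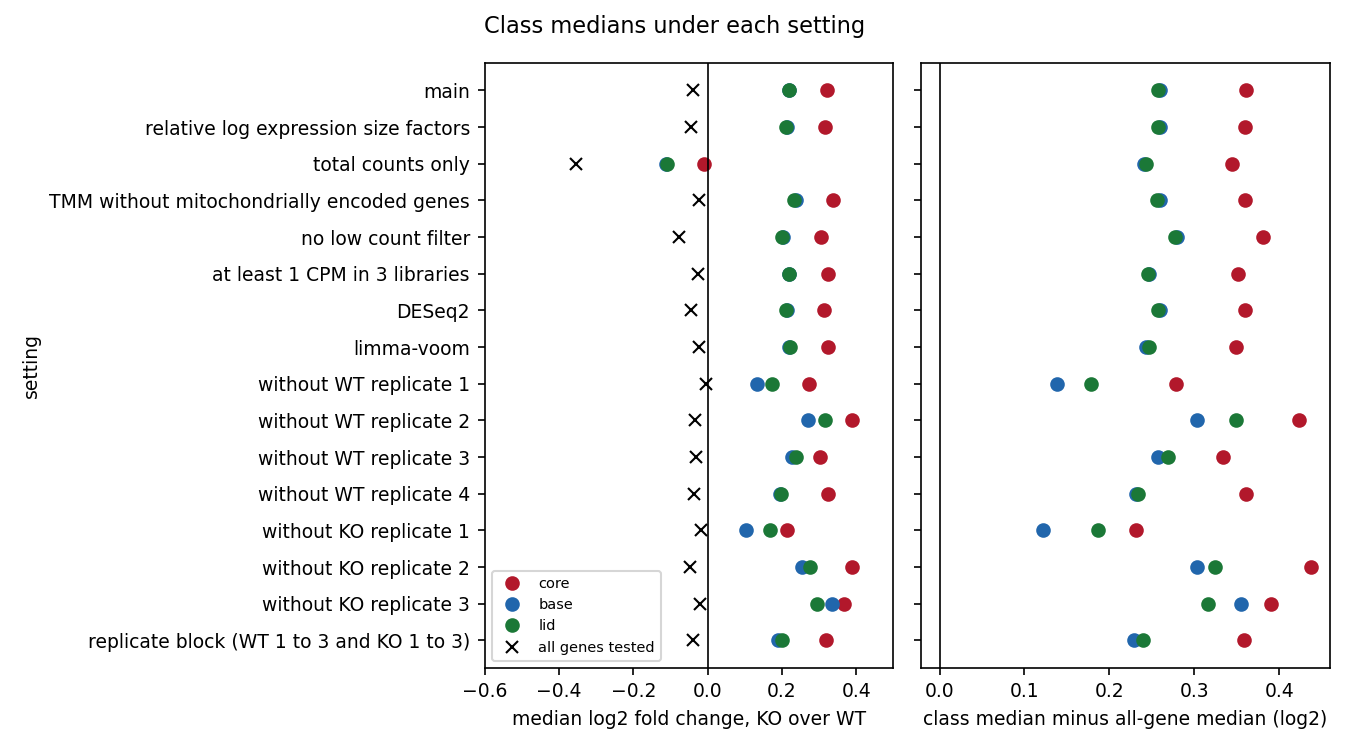
Median log2 fold change of KO over WT for 14 core, 9 base and 8 lid genes and for all genes tested, in the main analysis and 15 alternatives (vertical axis); the left panel gives the medians and the right panel the class medians minus the median of all genes. With total counts alone the class medians fall to -0.11 to -0.0089 on the left, while on the right every class median stays above 0, between 0.12 and 0.44.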

How the data were processed

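Poly(A) RNA of inguinal white adipose tissue was sequenced with a stranded kit, per the labels' protocols. The deposited table holds raw counts per gene, per the file headers, as whole numbers that the authors had not normalized. The submitters' processing notes name bcl2fastq 2.20.0, Trimmomatic, HISAT2 2.1.0, StringTie 1.3.4d, DESeq2 and the build mm10. For the annotation and the counting rule, nothing is given in the sources used here. The design text speaks of 3 replicates per condition, and the labels list 4 WT and 3 KO libraries, all used here.

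Entrez identifiers were matched to RefSeq symbols for 29444 of 29517 genes (73 without a match). Genes were filtered with filterByExpr (minimum count 10), scaled by TMM and tested with edgeR 4.0.16 in R 4.3.3 (quasi-likelihood, KO against WT, no covariate), with Benjamini-Hochberg adjustment over 19185 genes. Log2 CPM for class means and ratios used a prior count of 2, and the ratios were tested by exact permutation. The fit was tested on simulated data. Alternatives were other scalings and filters, DESeq2 1.42.0, limma 3.58.1 with voom, leaving out each library, and a replicate block. Members and lists were chosen with earlier results of these data known. All members are named. Values per library are given for Psmb5 and Psmb7, up to 3 members of each class with the smallest p, and those with a sign opposite to the median. The result of 1 other pathway gene is not reported here, although it is counted in its list.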

Additional observations from a re-analysis of the deposited data

Results flagged for a closer look

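Sets of 4 WT values were examined for a library far from the rest, for 87 quantities (levels of members and other pathway genes, ratios and class means). Of these 1 had such a library, and chance alone flags some. Psmd9 had 18.04 CPM in WT 2, against 14.8 to 15.3 CPM in the other WT libraries.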

How the results depend on the processing

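Total counts alone turned the class medians to -0.0089 (core), -0.11 (base) and -0.11 (lid), left 0 proteasome genes higher at an unadjusted p under 0.05, and gave 1 gene past the adjusted threshold. Limma-voom gave 1 such gene and DESeq2 2120. The cause of the last was not tested. Leaving out 1 library at a time, 3 to 15 proteasome genes were higher and 0 to 1 lower at an unadjusted p under 0.05, and the medians ran from 0.21 to 0.39 (core), 0.10 to 0.33 (base) and 0.17 to 0.32 (lid). Without KO 1 the count was 3 and without WT 2 it was 15.

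Of 629 single-gene values under 15 alternatives, 584 kept their sign and their side of the threshold. With total counts alone 30 changed sign, to -0.25 (Psmc6), -0.23 (Psmc2), -0.17 (Psmc3), -0.10 (Psmc5), -0.030 (Psmc1), -0.00162 (Psmc4), -0.18 (Psma7), -0.15 (Psma5), -0.048 (Psma2), -0.014 (Psma4), -0.00387 (Psma3), -0.10 (Psmb1), -0.078 (Psmb4), -0.16 (Psmd1), -0.11 (Psmd2), -0.16 (Psmd13), -0.15 (Psmd14), -0.13 (Psmd11), -0.13 (Psmd3), -0.095 (Psmd6), -0.057 (Psmd7), -0.046 (Psmd12), -0.20 (Psmd10), -0.11 (Psmd5), -0.039 (Psmd9), -0.29 (Psme1), -0.27 (Psme3), -0.081 (Psme4), -0.18 (Psmf1) and -0.30 (Psme3ip1). Leaving out 1 library changed some signs near 0, with ranges of -0.16 to 0.16 for Psme1, -0.013 to 0.12 for Psme3ip1, -0.012 to 0.25 for Psmc2 and -0.39 to 0.17 for Psmc3ip.

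Pairing of the libraries by replicate number was not shown. Same-numbered WT and KO libraries had correlations of 0.22, the highest of any pair compared, -0.17 and -0.02. So few libraries cannot exclude a pairing. With the replicate block, which leaves out WT 4, 3 proteasome genes were higher at an unadjusted p under 0.05, 1 gene in all passed the adjusted threshold, and Psmc3ip stood at 0.00144. Not every library correlated best with its own number. With 2589 or more counts per library for every core, base and lid gene except Psma8, the spread between libraries, not counting, limits these values. Psma8 had too few counts to read.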
